A study of Homo sapiens with 6 samples.

Results

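Iron uptake, storage and sensing genes were examined in the MACE-Seq data of an EGR3 overexpressing leukemia cell line. The 10 genes were selected by name for their role in iron handling, with earlier results of these data known, and each matched exactly 1 of the 35410 gene rows of the count table: TFRC, STEAP3, SLC11A2, SLC25A37, FTH1, FTL, SLC40A1, IREB2, ACO1 and HMOX1. Compared with SEM::mock, 7 genes were lower in SEM::EGR3, namely the iron exporter gene SLC40A1, both ferritin subunit genes FTL and FTH1, and the uptake genes TFRC, STEAP3, SLC11A2 and SLC25A37. ACO1, which encodes the cytosolic aconitase that doubles as an iron sensor, was higher, and IREB2, the gene of the other iron regulatory protein, did not pass the test. HMOX1 was too low to be tested. The 8 genes past the threshold stand against 68.5% of all 15465 tested genes that passed it in either direction (edgeR, p-values adjusted by Benjamini-Hochberg, threshold 0.05), so that a changed iron gene was no exception in this comparison. In the separate directions, 32.0% of all tested genes were lower and 36.5% higher in SEM::EGR3.

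The study addressed the transcriptional effect of the transcription factor EGR3 in SEM, an established line of human proB leukemia that carries the KMT2A::AFF1 fusion. The SEM::EGR3 line carries an inducible EGR3 vector and the SEM::mock line the matching empty vector. Both lines received 1 µg/mL doxycycline for 48 h before RNA extraction, so that the inducer itself is shared by the groups. MACE-Seq, which reads the 3′ ends of polyadenylated transcripts and thereby counts about 1 end per transcript regardless of its length, was run on 3 biological replicates per line. Whether each line is a clone or a transfected pool is not given in the sources used here.

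Iron enters most proliferating cells bound to transferrin. Transferrin receptor carries it into the endosome, a STEAP reductase reduces it there and a divalent metal transporter moves it to the cytosol, from which mitoferrin takes a share into mitochondria for heme and iron-sulfur clusters. Surplus iron is stored within the ferritin shell or leaves the cell through ferroportin. When iron is scarce, the iron regulatory proteins encoded by ACO1 and IREB2 bind hairpins called iron responsive elements. Binding in a 3′ UTR protects the transferrin receptor transcript from decay, whereas binding in a 5′ UTR blocks translation of the ferritin and ferroportin transcripts, an effect that a count of transcripts does not show. Erythroid cells, which make hemoglobin, use the same genes at high rates.

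The iron responsive elements are shown because they are the sequence feature on which the classical regulation of these transcripts rests, and because they group the members. They were searched in the protein-coding transcripts of GENCODE release 29 (GRCh38) as a bulged C, 5 bases, the loop CAGTGN and 5 bases that pair with the first 5 at 4 positions or more, framed by a lower stem with at least 3 of 5 pairs, with G-T counted as a pair. Such a match was found in 658 of 19702 genes with a protein-coding transcript (3.34%). The 6 loop bases are in capitals and all sequences are written 5′ to 3′ on the strand of the gene. The transferrin receptor transcript TFRC-201 held 4 matches in its 3′ UTR, at chr3:196050980-196051006, chr3:196050576-196050602, chr3:196050511-196050537 and chr3:196050464-196050490. FTH1-201 (chr11:61967575-61967601), FTL-201 (chr19:48965336-48965362) and SLC40A1-201 (chr2:189580662-189580688) each held 1 match in the 5′ UTR.
TFRC element 1: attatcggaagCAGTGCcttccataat
TFRC element 2: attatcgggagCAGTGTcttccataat
TFRC element 3: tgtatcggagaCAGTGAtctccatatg
TFRC element 4: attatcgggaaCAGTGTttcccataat
FTH1: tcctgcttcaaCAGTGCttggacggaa
FTL: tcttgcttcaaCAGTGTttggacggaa
SLC40A1: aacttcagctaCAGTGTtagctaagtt

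The elements were not present in every isoform. The match was found in 3 of 4 protein-coding transcripts of TFRC, 7 of 8 of FTH1, the only 1 of FTL and 1 of 5 of SLC40A1. None of the 18 protein-coding transcripts of SLC11A2 held a match to these letters. MACE-Seq reads the 3′ end, and so the counts do not tell which 5′ UTR a FTH1 or SLC40A1 transcript carried.

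**Figure D1:**
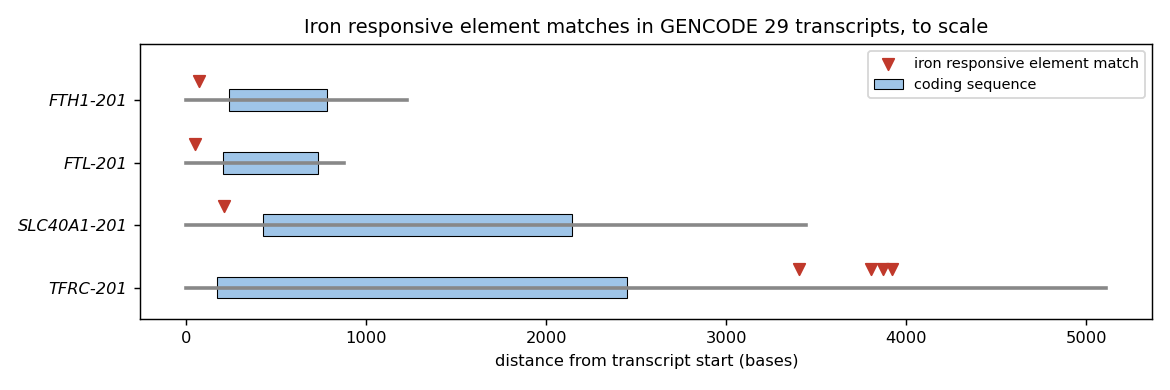
Position of the iron responsive element matches (red triangles) in 4 transcripts drawn to scale, with the distance from the transcript start in bases on the x axis and the coding sequence as a blue box. The 4 matches of TFRC-201 lie behind the coding sequence, and the single matches of FTH1-201, FTL-201 and SLC40A1-201 lie before it.

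Library depth, as the sum of deposited counts over the listed genes, was 5286115 to 6181388 for SEM::mock and 7293092 to 15106018 for SEM::EGR3. For EGR3 itself, SEM::mock replicates 1 to 3 gave 8, 10 and 6 counts, against 9768, 4952 and 5557 for SEM::EGR3 replicates 1 to 3. The lines differed in more than EGR3. Of 8 B-lineage markers, PAX5 had 1, 1 and 2 counts in the libraries labelled SEM::mock, and EBF1 had 0 in all 3, which goes against their proB label, while DNTT was at 0 to 2 counts in every library of both lines. The summed level of the B-lineage list was between 133 and 157 CPM in SEM::mock and between 441 and 472 CPM in SEM::EGR3. Of its 6 tested genes, 5 were higher, against 36.5% of all tested genes. Of these 5, CD79A, PAX5 and EBF1 had at most 3 counts in each SEM::mock library. They passed the filter on low counts only through SEM::EGR3. The sixth, CD24, was lower and supplied nearly all of the SEM::mock sum. Without CD24 the list summed to between 1.59 and 4.31 CPM in SEM::mock and between 417 and 448 CPM in SEM::EGR3, a step added after the data were seen. All 4 examined genes known to be driven by KMT2A fusions were higher in SEM::EGR3, to unlike degrees, against 36.5% of all tested genes. Of these, HOXA7 and HOXA9 had at most 3 counts in each SEM::mock library. They passed the filter on low counts only through SEM::EGR3 and could enter only as higher genes, so the count of 4 is no result about such genes. HOXA9 had counts of 1, 2 and 3 for SEM::mock against 825, 360 and 491 for SEM::EGR3. HOXA10 had 77, 74 and 75 against 1012, 443 and 549, and MEIS1 had 53, 48 and 38 against 720, 332 and 456. MTAP, CDKN2A and KLHL9, neighbours on the short arm of chromosome 9, had 0 or 1 counts in each SEM::mock library and at least 128 in each SEM::EGR3 library, and like the KMT2A targets they were chosen after values were seen. These neighbours, too, passed the filter only through SEM::EGR3. Erythroid markers, whose cells have a high iron demand, were abundant in both lines, which goes against the proB label of each. Their summed level was between 3943 and 4106 CPM in SEM::mock and between 3992 and 4108 CPM in SEM::EGR3. Within the erythroid list 7 of 10 tested genes were lower and 3 higher, against 32.0% lower and 36.5% higher among all tested genes. ALAS2 fell from 188 ± 7.15 to 103 ± 6.36 CPM and HBA2 rose from 213 ± 24.8 to 1080.4 ± 58.6 CPM (SD, n = 3 each). HBB and AHSP had 0 to 2 counts per library. Macrophage and monocyte markers, a cell type that recycles iron, summed to between 178 and 196 CPM in SEM::mock and between 59.8 and 60.8 CPM in SEM::EGR3. LYZ and CD68, both called lower, made up nearly all of that level, and CD163 had 0 or 1 counts per library. CSF1R had 0 counts in each SEM::mock library against 15, 4 and 8 in SEM::EGR3, and MARCO 0 against 1, 3 and 1. CSF1R and MARCO were too low to be tested. In such bulk libraries, fewer cells of a type and less RNA per cell cannot be told apart. The part of these differences in the iron gene results was not tested. Since they are present in all 3 libraries of a line, EGR3 and the background of the line cannot be told apart. In the following, levels are CPM, counts relative to the TMM-normalized total of the tested genes. The level of a member is compared between the lines and not with other genes.

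Transcripts of the transferrin uptake route were lower in SEM::EGR3 for each of the 3 members. TFRC encodes transferrin receptor 1 (ENSG00000072274, GRCh38 chromosome 3, 196027183 to 196082189, minus strand). It had 145, 167 and 205 CPM in SEM::mock replicates 1 to 3 and 106, 115 and 133 CPM in SEM::EGR3 replicates 1 to 3. All SEM::EGR3 libraries lay below all SEM::mock libraries, although the replicates of each line were spread and SEM::mock replicate 3 was the highest of all. Its mean fell from 172 ± 30.2 to 118 ± 13.7 CPM (SD, n = 3 each), for which edgeR gave a log2 fold change (log2fc) of -0.55 (SE 0.09, 95% confidence interval -0.73 to -0.37, adjusted p = 6.46e-06). With 1 library left out at a time, the log2fc ranged from -0.68 to -0.43. Among all tested genes, 2859 had a lower log2fc than TFRC.

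STEAP3, the ferrireductase of the transferrin endosome in erythroid cells (ENSG00000115107, chromosome 2, 119223831 to 119265652, plus strand), was measured with 60 to 122 counts per library. The levels were 16.3, 14.6 and 16.9 CPM in the SEM::mock libraries and 7.87, 8.08 and 9.28 CPM in the SEM::EGR3 libraries, with no overlap. The mean level of STEAP3 in SEM::EGR3 was 52.9% of that in SEM::mock (log2fc -0.92, SE 0.13, adjusted p = 1.51e-06, edgeR). SLC11A2 encodes the divalent metal transporter DMT1, which moves ferrous iron across the endosomal membrane (ENSG00000110911, chromosome 12, 50979401 to 51028566, minus strand). It was at 25.4, 25.0 and 25.9 CPM in SEM::mock against 12.2, 13.3 and 10.9 CPM in SEM::EGR3. The 3 SEM::mock libraries were nearly equal, and the highest SEM::EGR3 library reached 13.3 CPM. The log2fc of SLC11A2 was -1.07 (SE 0.11, 95% confidence interval -1.29 to -0.84, adjusted p = 4.96e-09, edgeR). Past an absolute log2fc of at least 1, a limit that 25.2% of all tested genes passed together with the adjusted threshold, only 2 members were found, SLC11A2 and SLC40A1. For SLC11A2 this depended on the scaling, since its log2fc was -0.99 without normalization factors. FTL, at -0.98, passed the limit only without SEM::mock replicate 1, where its log2fc was -1.02.

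SLC25A37 encodes mitoferrin 1, the mitochondrial iron importer of erythroid cells (ENSG00000147454, chromosome 8, 23528805 to 23575463, plus strand). Its levels were 218, 232 and 211 CPM in SEM::mock and 158, 154 and 143 CPM in SEM::EGR3. The groups did not overlap and the spread within each was small, so that the log2fc of -0.54 had an SE of 0.06 (adjusted p = 9.12e-09, edgeR). SLC25A28, the gene of mitoferrin 2, which has the same task in other cells, was at 17.5 ± 1.50 CPM in SEM::mock and 18.2 ± 1.98 CPM in SEM::EGR3 (SD, n = 3 each; log2fc 0.06, SE 0.12, adjusted p = 0.647, edgeR). Within the libraries, the counts of SLC25A37 divided by those of SLC25A28 gave 11.4, 14.4 and 12.1 in SEM::mock and 8.13, 7.97 and 9.01 in SEM::EGR3. This ratio was 0.664 times that of SEM::mock and did not overlap. A two-sided exact permutation test gave p = 0.1, the smallest value that 3 libraries against 3 allow (0.133 after Benjamini-Hochberg adjustment over the 4 ratios examined).

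**Figure D2:**
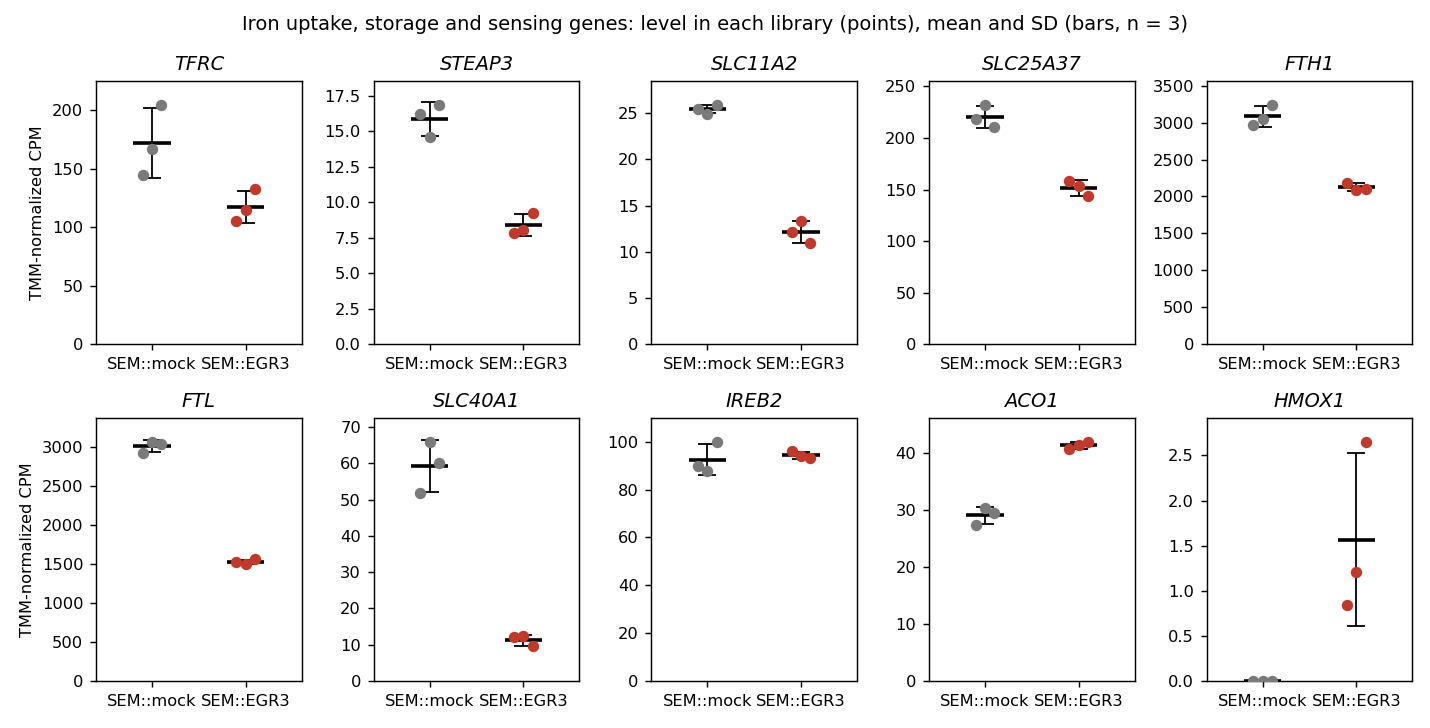
TMM-normalized level (CPM, y axis from 0) of the 10 iron genes in each of the 3 SEM::mock libraries (gray) and the 3 SEM::EGR3 libraries (red), with the mean (horizontal line) and SD (bars). Only the IREB2 libraries of the lines overlap, while ACO1 and HMOX1 are higher and the other 7 genes lower in SEM::EGR3.

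The ferritin genes were lower in SEM::EGR3, and unequally so. FTH1 encodes the ferritin heavy chain, the subunit that oxidizes iron for storage (ENSG00000167996, chromosome 11, 61959718 to 61967660, minus strand). It was at 2968, 3051 and 3239 CPM in SEM::mock and at 2187, 2088 and 2103 CPM in SEM::EGR3. The libraries of each line lay close together, and the mean fell from 3086 ± 139 to 2126 ± 53.7 CPM (SD, n = 3 each). The log2fc was -0.54 (SE 0.05, adjusted p = 5.43e-10, edgeR). FTL, which encodes the light chain that favours formation of the mineral core, lies on chromosome 19 from 48965301 to 48966878, plus strand (ENSG00000087086). Its levels were 2921, 3063 and 3035 CPM in SEM::mock and 1519, 1501 and 1556 CPM in SEM::EGR3. The level of FTL in SEM::EGR3 was 50.7% of that in SEM::mock, compared with 68.9% for FTH1 (log2fc -0.98, SE 0.05, adjusted p = 2.52e-15, edgeR).

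The ratio of FTH1 to FTL counts within a library, which needs no scaling, shows this difference directly. It was 1.02, 0.996 and 1.07 in SEM::mock and 1.44, 1.39 and 1.35 in SEM::EGR3. The lowest SEM::EGR3 library lay above the highest SEM::mock library, and the ratio was 1.36 times as high in SEM::EGR3. The exact permutation test, two-sided, again gave its smallest possible value of p = 0.1. The ferritin genes have many processed pseudogenes, which may share reads with them. The table lists 20 FTH1 pseudogene rows, summing to between 1255 and 1329 counts per SEM::mock library and between 1437 and 2480 per SEM::EGR3 library, and 10 FTL pseudogene rows, summing to between 390 and 822 counts per library. Adding these counts to the parent genes gave log2fc values of -0.53 for FTH1 and -0.98 for FTL. FTH1 also overlaps BEST1 on the opposite strand near its 3′ end, with 1 to 5 counts per library.

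SLC40A1, the gene of ferroportin, the only known cellular exporter of iron, had the largest log2fc in size of the 9 tested members (ENSG00000138449, chromosome 2, 189560579 to 189583758, minus strand). Its counts were 293, 394 and 307 for SEM::mock against 186, 91 and 86 for the deeper SEM::EGR3 libraries. Per library this corresponds to 51.8, 66.0 and 60.2 CPM in SEM::mock and 12.0, 12.3 and 9.50 CPM in SEM::EGR3, far apart from each other. The mean level was 5.27-fold lower in SEM::EGR3 (59.3 ± 7.15 against 11.3 ± 1.52 CPM, SD, n = 3 each). The log2fc was -2.39 (SE 0.11, 95% confidence interval -2.61 to -2.17, adjusted p = 5.29e-16, edgeR), and it ranged from -2.50 to -2.29 with 1 library left out. Only 93 of the 15465 tested genes had a lower log2fc than SLC40A1.

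**Figure D3:**
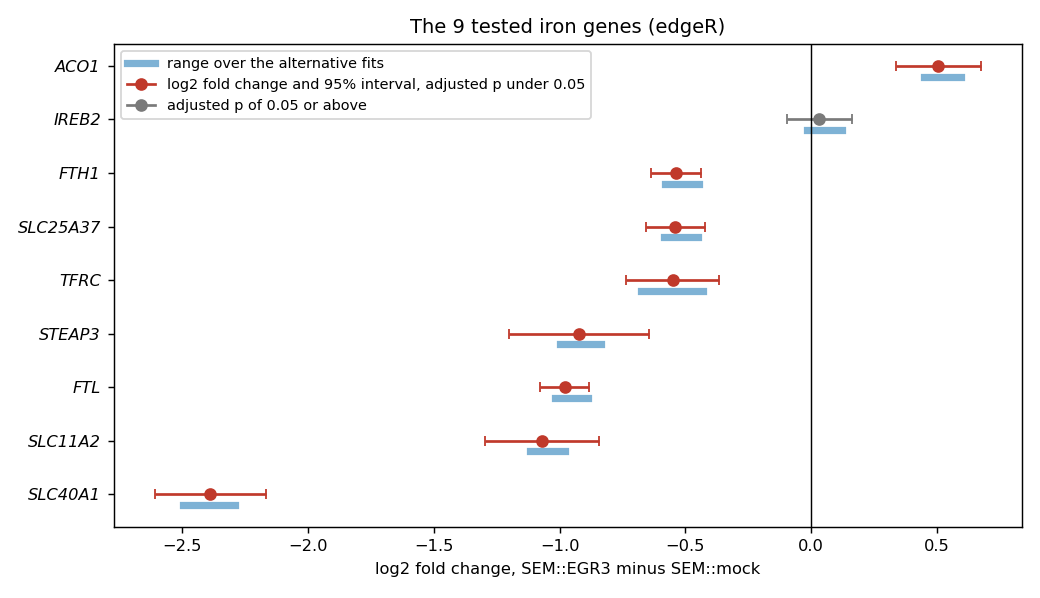
Log2 fold change of the 9 tested iron genes (x axis, SEM::EGR3 minus SEM::mock) with its 95% confidence interval from edgeR, and below each the range over the alternative fits (blue). SLC40A1 lies at -2.39, apart from the other members, which lie between -1.07 and 0.51, and only the interval of IREB2 includes 0.

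Of the sensor genes, ACO1 was higher and IREB2 did not pass the test. ACO1, whose protein is aconitase when it holds an iron-sulfur cluster and iron regulatory protein 1 when it does not, lies on chromosome 9 from 32384603 to 32454769, plus strand (ENSG00000122729). Its levels of 27.4, 30.3 and 29.4 CPM in SEM::mock and 40.6, 41.4 and 42.0 CPM in SEM::EGR3 did not overlap. The mean was 1.42-fold higher in SEM::EGR3 (log2fc 0.51, SE 0.08, adjusted p = 6.96e-06, edgeR), and 4148 tested genes had a higher log2fc. ACO1 lies on the same chromosome arm as MTAP, CDKN2A and KLHL9, but had 150 to 181 counts in each SEM::mock library. The part of that chromosomal difference in the ACO1 result was not tested. IREB2 encodes iron regulatory protein 2, which is degraded when iron is replete (ENSG00000136381, chromosome 15, 78437431 to 78501456, plus strand). It was at 89.8, 87.8 and 100.0 CPM in SEM::mock and 96.0, 93.9 and 93.2 CPM in SEM::EGR3, with overlapping libraries. The log2fc of 0.03 had a 95% confidence interval from -0.10 to 0.16 (adjusted p = 0.661, edgeR), so that a difference was not detectable at this depth and spread. The ratio of IREB2 to ACO1 counts was 3.28, 2.90 and 3.40 in SEM::mock and 2.36, 2.27 and 2.22 in SEM::EGR3, without overlap (exact permutation test, two-sided, p = 0.1).

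**Figure D4:**
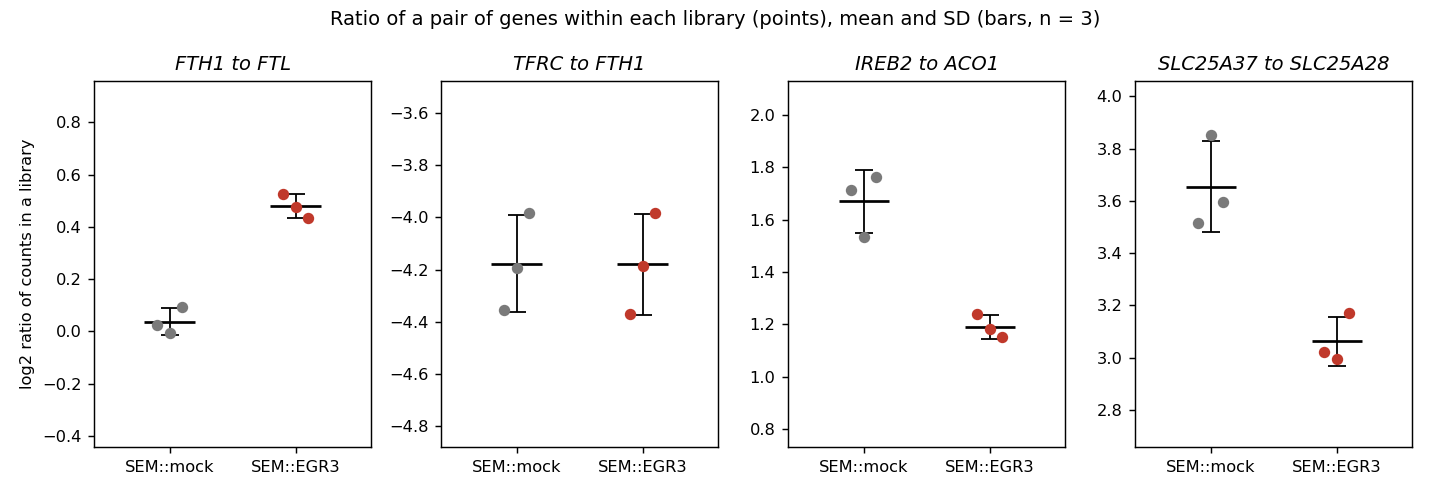
Log2 ratio of the counts of a pair of genes in each library (points), with the mean and SD of the 3 libraries per line (y axis ranges differ but span the same width). The ratios of FTH1 to FTL, IREB2 to ACO1 and SLC25A37 to SLC25A28 do not overlap between the lines, whereas that of TFRC to FTH1 does.

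TFRC and FTH1 are often read as an opposing pair, since the iron regulatory proteins stabilize the former and block translation of the latter. Here the level in SEM::EGR3 was 68.4% of that in SEM::mock for TFRC and 68.9% for FTH1. The log2 ratio of TFRC to FTH1 counts was -4.18 ± 0.19 in each line (SD, n = 3 each), with a difference of -0.00 (exact permutation test, two-sided, p = 0.9). The spread of 0.19 within each line limits what this shows, and the difference ranged from -0.101 to 0.0931 with 1 library left out.

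HMOX1, the inducible heme oxygenase that frees iron from heme (ENSG00000100292, chromosome 22, 35380361 to 35394214, plus strand), had 0 counts in all 3 SEM::mock libraries. The SEM::EGR3 libraries gave 13, 9 and 24 counts, or 0.839, 1.21 and 2.65 CPM. HMOX1 did not pass the filter on low counts. Against a limit of 3 counts per SEM::mock library (0.540 CPM on average), which covers counting error only, the SEM::EGR3 level was at least 2.90-fold higher. Without SEM::EGR3 replicate 3, the highest library, this bound was 1.90-fold. In the fit without the filter its adjusted p-value was 1.89e-08 over 34056 genes (edgeR). HMOX2, the constitutive heme oxygenase, was at 40.5 ± 4.01 CPM in SEM::mock and 39.6 ± 2.23 CPM in SEM::EGR3 (SD, n = 3 each; log2fc -0.03, SE 0.08, adjusted p = 0.760, edgeR), a sign that turned under other scalings.

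In all, the libraries of the lines did not overlap for 8 of the 9 tested members, compared with 70.1% of all tested genes. The median log2fc of the 9 tested members was -0.55, and that of all tested genes was 0.03. The calls of the 9 tested members were the same under the alternatives tried, apart from the fold limit, as given above for SLC11A2 and FTL. HMOX1 gained a call in the fit without the filter.

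Promoters of the members were searched because EGR3 binds a GC-rich element, and members were called in both directions. The 250 bases before the start of each RefSeq transcript (GRCh38.p14) were searched on both strands for GCGTGGGCG, found in 253 of 35116 promoters (0.720%), and for GCGGGGGCG, found in 1659 (4.72%). Of the 10 genes, 7 had an entry, while FTH1, SLC25A37 and HMOX1 had none and were not searched. SLC11A2, which was lower, held GCGTGGGCG 125 bases before a start, here in capitals within chr12:51026455-51026554 on the minus strand. ACO1, which was higher, held GCGGGGGCG 128 bases before its start, within chr9:32384470-32384569 on the plus strand.
SLC11A2 promoter: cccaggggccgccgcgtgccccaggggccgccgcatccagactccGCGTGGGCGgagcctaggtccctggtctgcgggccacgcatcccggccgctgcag
ACO1 promoter: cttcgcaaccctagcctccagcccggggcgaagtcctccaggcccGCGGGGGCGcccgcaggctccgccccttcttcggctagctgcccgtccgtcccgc

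IREB2, which did not pass the test, held GCGGGGGCG on the opposite strand 167 bases before a start. TFRC, STEAP3, FTL and SLC40A1 held neither motif in this window. The antioxidant response element TGACNNNGC, bound by NRF2 and BACH1 and present in 3830 promoters (10.9%), was in none of the 7. This leaves out FTH1 and HMOX1, which had no entry, and any site beyond the 250 bases. Whether the iron genes carry the element elsewhere was not examined. A match is a description of the letters, and binding was not measured here.

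Other genes of iron and heme metabolism were found on both sides. Of 62 genes, 60 had a row and 53 were tested, of which 18 were higher, 21 lower and 14 did not pass the threshold, with a median log2fc of -0.01. The 39 called genes stand against the 68.5% called among all tested genes, and the 39 genes without overlap against 70.1%. Which direction had more genes depended on the scaling, with 21 higher and 16 lower without normalization factors. By role, the groups differed in their counts, each of which stands against 36.5% higher and 32.0% lower among all tested genes. These lists were written with earlier results of these data known.

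Among genes of the transferrin cycle and membrane transport, 2 of 11 tested genes were higher and 6 lower, with a median log2fc of -0.15. STEAP1 gave 17, 17 and 16 counts for SEM::mock against 10, 1 and 7 for SEM::EGR3 (log2fc -2.38, SE 0.37, adjusted p = 3.45e-06, edgeR). CYBRD1, the duodenal cytochrome b that reduces iron at the cell surface, fell from 16.6 ± 0.191 to 6.40 ± 0.917 CPM (SD, n = 3 each). HFE, which binds transferrin receptor, rose from 0.900 ± 0.467 to 2.56 ± 0.237 CPM, on 3 to 8 counts per SEM::mock library. TFR2, the second transferrin receptor and a sensor of transferrin iron, was at 59.2 ± 3.57 and 51.8 ± 3.41 CPM (log2fc -0.20, SE 0.07, adjusted p = 0.0179, edgeR). The call for TFR2 was lost with DESeq2, with other scalings and without SEM::EGR3 replicate 1, where the log2fc was -0.14.

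In cytosolic iron handling, 2 of 4 tested genes were higher and 1 lower, with a median log2fc of 0.14. FBXL5, the iron-sensing subunit of the ubiquitin ligase that degrades iron regulatory protein 2, rose from 17.5 ± 0.494 to 32.0 ± 0.830 CPM (SD, n = 3 each; log2fc 0.87, SE 0.10, adjusted p = 1.75e-08, edgeR). Its transcript thus differed between the lines while that of IREB2 did not pass the test. The iron chaperone genes moved in opposite directions, PCBP1 from 435 ± 6.37 to 346 ± 22.2 CPM and PCBP2 from 741 ± 38.1 to 835 ± 39.9 CPM. The call for PCBP2 (log2fc 0.17, adjusted p = 0.00607, edgeR) was lost without SEM::mock replicate 3, where the log2fc was 0.12. NCOA4, the receptor that delivers ferritin to the lysosome, was at 131 ± 6.31 CPM in SEM::mock against 142 ± 5.74 CPM in SEM::EGR3 and did not pass (adjusted p = 0.0884, edgeR), although it passed without normalization factors (log2fc 0.19).

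The iron-sulfur cluster genes were split. Of 17 tested genes of mitochondrial iron use and cluster assembly, 6 were higher, 5 lower and 6 did not pass, with a median log2fc of 0.06. ABCB10, which stabilizes mitoferrin 1 in erythroid cells, fell from 43.3 ± 1.40 to 25.5 ± 0.962 CPM, and FDXR, the reductase that supplies electrons to ferredoxin, from 135 ± 2.30 to 83.0 ± 7.68 CPM. ISCA2, a late assembly factor, rose from 13.7 ± 0.703 to 22.0 ± 0.382 CPM (SD, n = 3 for each value). Of 9 tested genes of the cytosolic assembly machinery, 4 were higher and 3 lower (median log2fc -0.05). The log2fc was -0.81 for NDOR1, -0.45 for GLRX3 and 0.39 for NUBP1, with SEs of 0.19, 0.07 and 0.08.

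Genes of heme transport and breakdown were lower in 5 of 8 tested cases and higher in 1, against 32.0% lower and 36.5% higher among all tested genes. The 6 called genes stand against 68.5% called among all tested genes. The median log2fc of the role was -0.56. The largest differences were those of ABCG2, an exporter of heme and porphyrins, and of the biliverdin reductase genes BLVRA and BLVRB. ABCG2 fell from 36.5 ± 4.89 to 8.84 ± 0.877 CPM, BLVRA from 66.5 ± 3.58 to 27.0 ± 2.65 CPM and BLVRB from 264 ± 14.6 to 115 ± 10.7 CPM (SD, n = 3 each). Their log2fc values were -2.06, -1.31 and -1.21, with adjusted p-values of 7.95e-14, 3.14e-13 and 1.72e-14 (edgeR).

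Systemic iron regulators, which act between tissues and are known from liver and erythroblasts, were low in SEM::mock. Of 4 tested genes, 3 were higher in SEM::EGR3 and HJV was lower (log2fc -2.45), against 36.5% higher and 32.0% lower among all tested genes. HAMP and BMP6 passed the filter on low counts only through SEM::EGR3, so they could enter only as higher genes. The count of 3 and the median log2fc rest on them and are no result about the role. This median was 2.95, or 2.25 with genes near 0 set to their lower bound. HAMP, the gene of hepcidin, the hormone that removes ferroportin from the cell surface, was not counted in any SEM::mock library and gave 40, 17 and 25 counts for SEM::EGR3, which was at least 4.71-fold higher. BMP6, an inducer of hepcidin, had 2, 1 and 2 against 45, 14 and 27 counts, at least 4.80-fold higher. ERFE, the erythroid hormone that lowers hepcidin, rose from 3.43 ± 0.788 to 24.1 ± 0.899 CPM (SD, n = 3 each; log2fc 2.80, SE 0.16, adjusted p = 5.02e-14, edgeR). Hepcidin acts on the ferroportin protein, and its gene was measured here at no more than 40 counts per library.

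**Figure D5:**
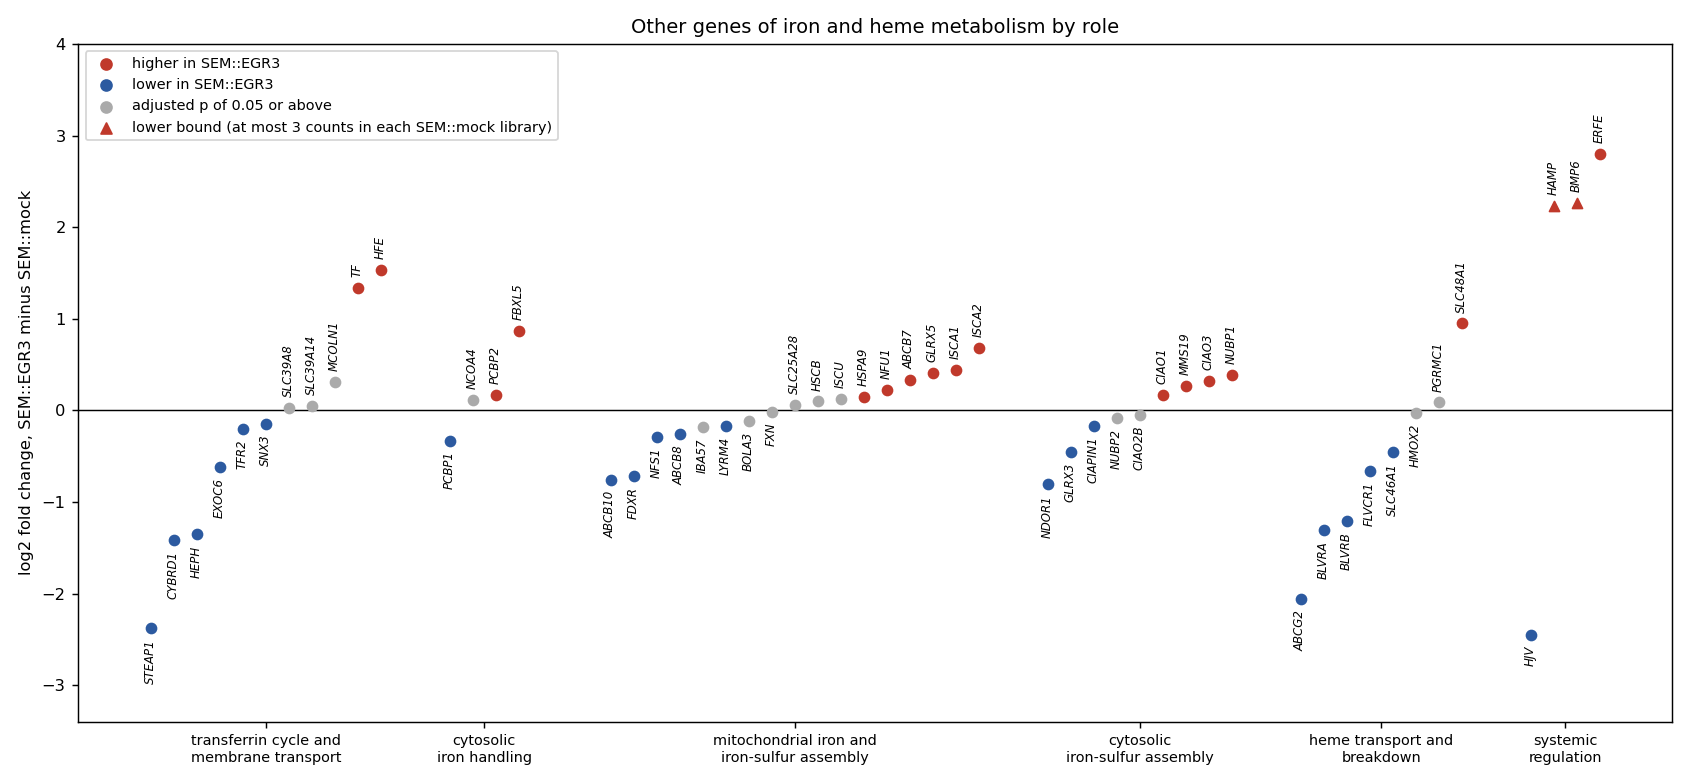
Log2 fold change (y axis, SEM::EGR3 minus SEM::mock) of the 53 tested further iron and heme genes, ordered by value within 6 roles, in red where higher, blue where lower and gray where the adjusted p-value was 0.05 or above; triangles mark lower bounds. The 18 higher and 21 lower genes fall on both sides of 0 in every role.

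Grouped by the hairpin rather than by role, all 10 genes of a list of transcripts known to carry an iron responsive element were called, 8 lower and 2 higher, with a median log2fc of -0.82. Among all tested genes, 68.5% were called and 32.0% were lower, and whether the list differs from them was not tested. The searched letters were found in 7 of the 10. This list holds 5 of the members, so that it is no separate observation for them. Of its other genes, CDC14A, a phosphatase gene with a 3′ UTR element, fell from 12.7 ± 2.22 to 4.75 ± 0.819 CPM (SD, n = 3 each; log2fc -1.47, SE 0.18, adjusted p = 7.55e-08, edgeR). Lower transcripts were found with the element on either side of the coding sequence: TFRC and CDC14A carry it behind and FTH1, FTL and SLC40A1 before it.

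Ferritin, ferroportin and heme oxygenase genes are also classical targets of the antioxidant factor NRF2 and of its competitor BACH1, which represses them until heme binds it. NFE2L2, the gene of NRF2, was at 48.8 ± 2.66 and 43.7 ± 3.35 CPM (adjusted p = 0.0980, edgeR), and was called lower only without SEM::mock replicate 1 (log2fc -0.21, adjusted p = 0.0395). BACH1 rose from 36.1 ± 3.14 to 47.2 ± 3.00 CPM (SD, n = 3 each; log2fc 0.39, SE 0.08, adjusted p = 1.80e-04, edgeR). Of the 8 tested genes of this list, 2 were higher and 3 lower, against 36.5% higher and 32.0% lower among all tested genes. The 3 were NQO1, a quinone reductase (log2fc -0.98, SE 0.07), GCLM, the modifier subunit of glutathione synthesis (-0.80, SE 0.08), and TXNRD1, a thioredoxin reductase (-0.52, SE 0.06). The median of the list was -0.06.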

How the data were processed

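MACE-Seq libraries of 3 SEM::mock and 3 SEM::EGR3 replicates were compared. The authors deposited 1 table with whole-number counts per gene, CPM values (named TPM in the table, counts scaled to a library total between 7172067 and 20310325) and a size-factor normalized signal, besides group means and log2 fold changes with p-values of their own comparison, which were not used. The submitters' processing notes name bcl2fastq, Bowtie2, HTSeq and the build GRCh38. Versions and strand setting are not given in the sources used here. Columns headed ERG3 were read as SEM::EGR3, the only other line named. 0 columns of per-sample values were left unmapped, and no row lacked a gene name.

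The counts were tested with edgeR 4.0.16 under R 4.3.3 (filterByExpr, TMM, glmQLFit, glmQLFTest, no covariate) over 15465 genes with Benjamini-Hochberg adjustment. The script was tested on simulated data. Replicates of a line differed beyond sampling noise. Genes with up to 3 counts in each SEM::mock library were given as lower bounds, which cover counting error only. Ratios were tested by exact permutation. Gene positions come from GENCODE release 29, which holds 97.0% of the identifiers, and promoters from RefSeq (GRCh38.p14).

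The members and lists were chosen with earlier results of these data known. All members were named, and of the wider, hairpin and NRF2 lists the 3 largest changes per role that passed the threshold without overlap, besides SLC25A28, TFR2, NCOA4, FBXL5, PCBP1, PCBP2, HMOX2, BACH1 and NFE2L2. EGR3, marker, KMT2A target and chromosome 9 genes were named outside this rule. Alternatives were DESeq2 1.42.0, other scalings and filters, the replicate number as a term, added pseudogene counts and leaving out each library. A few genes of the lists are not reported here by name.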

Additional observations from a re-analysis of the deposited data

How the results depend on the processing

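Of 128 alternative values for the 9 tested members, 126 kept their direction and side of the threshold. The other 2 were those of IREB2, whose log2 fold change (log2fc) was -0.00479 without SEM::mock replicate 1 and ranged from -0.0174 to 0.0738 over the fits without 1 library, never past the threshold. Without the filter on low counts, HMOX1 was also tested and called. For the 28 other named genes, 371 of 388 values kept both, 6 lost and 4 gained the call and 7 changed sign. These were SLC25A28 (-9.87e-05 without SEM::EGR3 replicate 1, range from -0.0127 to 0.146 with 1 library left out) and HMOX2 (0.0474 without normalization factors, 0.0197 at 10 counts or more in every library, from -0.130 to 0.0094 with 1 library left out, and 0.0592 with the authors' library totals, a scaling chosen after seeing the data). The log2 ratio of TFRC to FTH1 ranged from -0.101 to 0.0931 with 1 library left out. With a log2fc of at least 1 in size as a further criterion, 3896 genes (2581 higher, 1315 lower), 2 members and 12 wider iron genes (5 higher, 7 lower) remained.

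Replicate numbers did not pair the samples, since deviations from the group means correlated at -0.11, -0.06 and -0.03 between equal numbers. The replicate block gave 10081 calls instead of 10594 and changed no call of a member. DESeq2 called 9391 genes (5015 higher, 4376 lower). Depth limits HMOX1, HAMP, BMP6 and STEAP1, which had few counts in a line. The cause of these changes was not tested.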

Other observations

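Some further iron genes, chosen after their values were seen, differed between the lines as much as the members. HEPH, the gene of hephaestin, a ferroxidase that works with ferroportin, fell from 103 ± 2.17 to 40.1 ± 1.40 CPM (SD, n = 3 each; log2fc -1.36, SE 0.07, adjusted p = 2.23e-15, edgeR), alongside SLC40A1. ALAS2, which starts heme synthesis in erythroid cells and carries a 5′ UTR iron responsive element, fell from 188 ± 7.15 to 103 ± 6.36 CPM. SLC48A1, which releases heme from the lysosome, rose from 55.4 ± 2.25 to 107 ± 3.84 CPM, and TF, the gene of transferrin itself, from 4.23 ± 0.751 to 10.7 ± 0.173 CPM. HJV, a coreceptor of hepcidin induction, gave 38, 27 and 14 counts for SEM::mock against 8, 10 and 9 for the deeper SEM::EGR3 libraries, opposite in direction to HAMP and BMP6. TMPRSS6, a protease that lowers hepcidin, was not counted in SEM::mock and gave 14, 10 and 12 counts for SEM::EGR3, which was at least 2.21-fold higher, and was too low to be tested.

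EPAS1, which encodes the hypoxia factor HIF-2α and belongs to the list of transcripts with an iron responsive element, rose from 9.86 ± 0.0488 to 14.9 ± 0.980 CPM (SD, n = 3 each; log2fc 0.61, SE 0.13). No match to the searched hairpin letters was found in its transcripts.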
